A study of Mus musculus with 6 samples.

Results

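The 14-3-3 family was followed in the transcriptome of mouse Sertoli cells through its 7 genes, Sfn, Ywhab, Ywhae, Ywhag, Ywhah, Ywhaq and Ywhaz. They were the rows of the count table that carry these 7 gene names, out of 28262 genes in all, and all 7 were among the 14919 genes with enough reads to be tested. The family was chosen by the near loss of Sfn reads in the knockout libraries, so the change of Sfn is described here without a test, while the values of the other 6 genes played no part in the choice. The 6 libraries were compared, 3 from Pa1F/F Sertoli cells, which carry floxed Pa1 alleles without Cre and served as the control, and 3 from Amh-pa1-/- Sertoli cells, in which Cre driven by the Amh promoter removed the same floxed alleles. Pa1 encodes a subunit of the histone methyltransferase complexes built around MLL3 and MLL4. All the mice were labelled C57BL/6, untreated and 20 days old, and the Sertoli cells were isolated from the testis and cultured on dishes that were washed to remove germ cells. The genotypes rest on the labels, since the reads of Pa1 were not analysed here, and the labels do not say whether the 3 replicates of a genotype came from separate animals, so that p-values measure the spread between these libraries only.

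The 14-3-3 proteins are small acidic adaptors that work as dimers, each partner of which holds a client protein by a short stretch with a phosphorylated serine or threonine. By binding they hide localization signals, block enzymes or keep clients such as the CDC25 phosphatases, FOXO factors, BAD and YAP in the cytoplasm. The proteins named by the Ywha genes are found in nearly all cells and can pair with one another, whereas stratifin, the product of Sfn, is known mostly from epithelia, prefers to pair with itself, is induced by p53 and holds cells in G2 by keeping the mitotic cyclin-dependent kinase out of the nucleus. Sertoli cells are the epithelial cells of the seminiferous tubule that nurse the germ cells.

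Sfn, whose reads carry the largest difference in the family, lies on the minus strand of chromosome 4 at chr4:133600556-133602168 (GRCm38) and has 1 annotated transcript of 1613 bases. Its coding sequence was 64.4% to 70.8% identical to those of the 6 Ywha genes, a range close to the 64.4% to 79.0% found among the Ywha genes themselves. The RefSeq tables (GRCm38.p6) gave the bases before the transcription start for 5 of the 7 genes. The 250 bases before the start of Sfn, chr4:133602169-133602418 on the minus strand, and of Ywhah, chr5:33018566-33018815 on the plus strand, are printed 5′ to 3′ because they belong to the gene that chose the family and to the Ywha gene that fell, and because they differ in the number of CpG dinucleotides, which are in capitals.
Sfn: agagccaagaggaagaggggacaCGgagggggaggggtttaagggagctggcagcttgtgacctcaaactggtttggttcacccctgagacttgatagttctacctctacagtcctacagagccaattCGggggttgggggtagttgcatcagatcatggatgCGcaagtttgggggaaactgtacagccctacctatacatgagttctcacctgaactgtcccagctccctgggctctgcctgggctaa
Ywhah: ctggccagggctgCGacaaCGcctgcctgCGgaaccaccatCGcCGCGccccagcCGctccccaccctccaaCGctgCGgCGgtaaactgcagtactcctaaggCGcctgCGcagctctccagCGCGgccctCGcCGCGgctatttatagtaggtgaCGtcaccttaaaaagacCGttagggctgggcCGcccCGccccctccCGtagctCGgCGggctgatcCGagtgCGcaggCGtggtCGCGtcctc
The Sfn window held 3 CpG dinucleotides, below the median of 6 over 32851 promoter windows of the same length. Ywhah and Ywhae held 29 each, Ywhaq held 24 and Ywhag held 16. The cAMP response element TGACGTCA stood in the Ywhah window from 96 to 89 bases before the start, and the TATA motif TATAAA was found on its opposite strand from 107 to 102 bases before the start. On either strand the former stands in 1.55% and the latter in 12.4% of all windows. The AP-1 motif TGACTCA, which 4.46% of windows hold, and the p53 half-site, which 7.13% hold, were in none of the 5 windows.

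Each library held 13203757 to 16231443 reads counted in genes. Read counts were divided by library size scaled with the trimmed mean of M-values (TMM), which gives the normalized counts used below. Pa1F/F replicates 1 and 3 resembled each other closely, with a chi-square of 2.24 per degree of freedom over genes, as did Amh-pa1-/- replicates 1 and 2 with 1.68, whereas the other pairs of the same genotype gave 18.7 to 30.9. Pa1F/F replicate 2 and Amh-pa1-/- replicate 3 thus stood apart from their groups, and the values that rest on them are pointed out.

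Sfn was a well expressed gene in control Sertoli cells and was nearly without reads in knockout cells. The normalized count of Sfn was 2142, 1814 and 1960 in the Pa1F/F libraries, by replicate number, but only 7.81, 10.1 and 14 in the Amh-pa1-/- libraries. The genotypes were far apart, and the control libraries differed among themselves with a coefficient of variation of 8.35%. The means were 1972 ± 165 and 10.7 ± 3.14 (SD, n = 3 each), a level 185-fold higher in control than in knockout cells and a log2 fold change of -7.52 with a standard error of 0.17, given as a description since Sfn chose the family. Counted per kilobase of transcript, the control level of Sfn was at or above that of 94.5% of the 14919 tested genes. A length was known for 14787 of them, and the others were not counted as at or below Sfn.

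The reads left in the knockout were few but above the floor of 3 reads in every library. The Amh-pa1-/- libraries held 8, 9 and 14 Sfn reads, against 2364, 1873 and 1869 in the control libraries. The exact Poisson interval at 95% ran from 3.45 to 15.8 reads around the 8 reads and from 7.65 to 23.5 around the 14, so that the knockout libraries did not differ beyond counting error, the only error these intervals cover. In a bulk sample, fewer cells that express Sfn and less Sfn RNA per cell cannot be told apart.

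**Figure D1:**
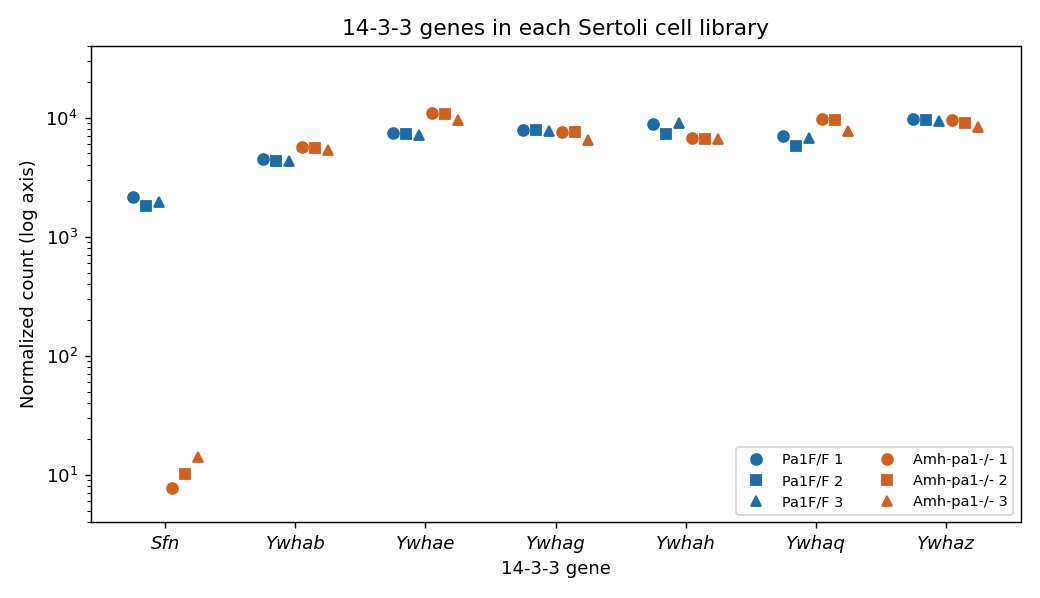
Normalized counts (log axis) of the 7 genes in each library, with blue for Pa1F/F and orange for Amh-pa1-/- and the marker shape for the replicate number. Sfn falls from 1814 to 2142 in control libraries to 7.81 to 14 in knockout libraries, while each Ywha gene stays between 4296 and 10883 in all 6.

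The 6 Ywha genes stayed highly expressed in both genotypes, and 4 of them changed, by far less than Sfn. Ywhab, Ywhae and Ywhaq rose, Ywhah fell, and Ywhag and Ywhaz did not pass the test (edgeR's quasi-likelihood test, Benjamini-Hochberg adjusted p under 0.05). Among all tested genes 18.2% were called higher and 17.1% lower by this rule. With a log2 fold change of at least 1 as a further condition, which 5.44% of tested genes met as higher and 6.56% as lower, 0 of the 6 were called, by edgeR, DESeq2 or limma-voom, and 0 had such a change at an unadjusted p under 0.05.

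Ywhae, which encodes 14-3-3ε, rose. Its normalized count was 7409, 7301 and 7135 in the Pa1F/F libraries against 10883, 10770 and 9590 in the Amh-pa1-/- libraries. Every knockout library lay above every control library, the change was 43.0%, and the log2 fold change was 0.52 with a standard error of 0.07 (edgeR adjusted p = 0.00226). Ywhae (ENSMUSG00000020849) lies at chr11:75732869-75765845 on the plus strand, where it overlaps the antisense non-coding gene Gm26836, and the strand setting of the counting is not given in the sources used here.

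Ywhaq, which encodes 14-3-3θ, a form well known from T cells, also rose. Its normalized count was 6960, 5801 and 6796 in the control libraries and 9827, 9618 and 7745 in the knockout libraries, in the order of the replicates. The genotypes did not overlap, but the library of each genotype that stood apart, Pa1F/F replicate 2 and Amh-pa1-/- replicate 3, was also the lowest of its group. The log2 fold change was 0.48 with a standard error of 0.12 (edgeR adjusted p = 0.0196). Ywhaq (ENSMUSG00000076432) lies at chr12:21390071-21417637 on the minus strand.

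Ywhab, which encodes 14-3-3β, a regulator of RAF kinases, rose with little spread. Its normalized count was 4468, 4296 and 4344 in the control libraries and 5714, 5553 and 5370 in the knockout libraries. All knockout libraries were above all control libraries, and the log2 fold change was 0.34 with a standard error of 0.05 (edgeR adjusted p = 0.00345). Ywhab (ENSMUSG00000018326) lies at chr2:163994960-164018588 on the plus strand.

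Ywhah, which encodes 14-3-3η, a form abundant in the brain, was the Ywha gene that fell. Its normalized count was 8853, 7318 and 8948 in the control libraries and 6729, 6570 and 6595 in the knockout libraries. The genotypes did not overlap, with Pa1F/F replicate 2 nearest to the knockout libraries, and the fall was 20.8% on the means. The log2 fold change was -0.34 with a standard error of 0.09 (edgeR adjusted p = 0.0249). Ywhah (ENSMUSG00000018965) lies at chr5:33018816-33027966 on the plus strand.

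Ywhag and Ywhaz, which encode 14-3-3γ and 14-3-3ζ, did not pass the test. The normalized count of Ywhag was 7901, 7893 and 7719 in the control and 7588, 7534 and 6496 in the knockout libraries. That of Ywhaz was 9722, 9508 and 9387 in the control and 9470, 9083 and 8300 in the knockout libraries. The knockout libraries of Ywhag were all just below the control libraries, while those of Ywhaz overlapped them, and Amh-pa1-/- replicate 3 was the lowest for both genes. The log2 fold change was -0.12 for Ywhag, with a 95% interval from -0.30 to 0.06 (edgeR adjusted p = 0.254). For Ywhaz it was -0.09, with a 95% interval from -0.26 to 0.07 (edgeR adjusted p = 0.342). Ywhag (ENSMUSG00000051391) lies at chr5:135908409-135934616 and Ywhaz (ENSMUSG00000022285) at chr15:36770770-36794547, both on the minus strand.

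In all, 5 of the 6 Ywha genes had genotypes that did not overlap, as did 52.4% of all tested genes. The rise of Ywhab and Ywhae passed the test whichever library was left out, whereas Ywhah lost its call without Pa1F/F replicate 1 (adjusted p = 0.102) or 3 (0.0898), or without Amh-pa1-/- replicate 1 (0.0710) or 2 (0.0878), and Ywhaq without Pa1F/F replicate 2 (0.0502) or 3 (0.0542), or without Amh-pa1-/- replicate 1 (0.0661) or 2 (0.0592), all by edgeR. With the close pairs of replicates summed, which leaves 2 libraries a genotype, 0 of the 6 were called by edgeR, the 3 that rose had an unadjusted p under 0.05 and no change turned its direction.

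**Figure D2:**
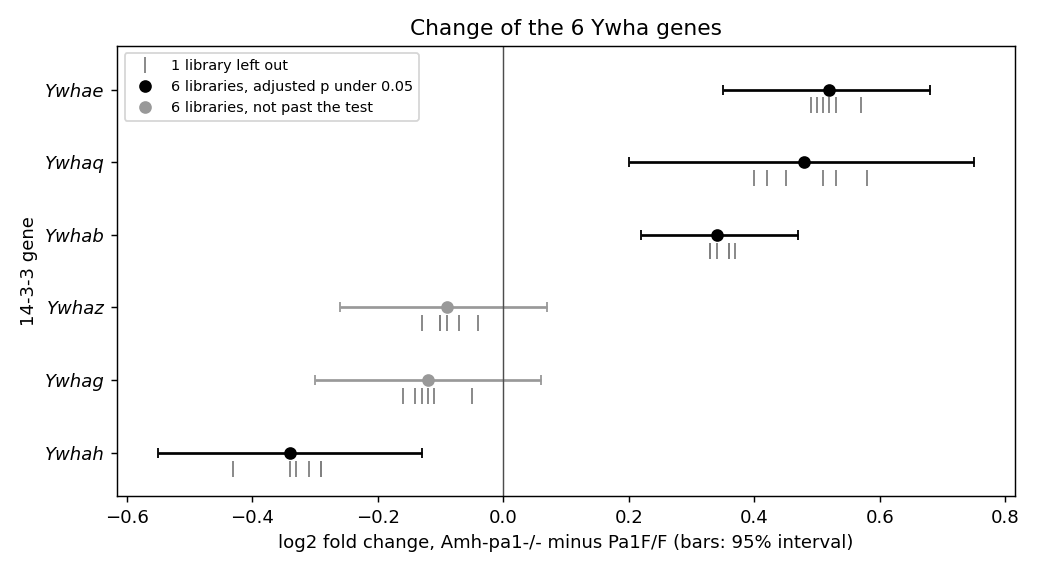
Log2 fold change of each Ywha gene in Amh-pa1-/- against Pa1F/F cells, with points for the estimate from 3 against 3 libraries, bars for its 95% interval and ticks for the estimates with 1 library left out. Ywhae, Ywhaq and Ywhab lie above 0 and Ywhah below 0 with intervals that leave 0 out, and the intervals of Ywhag and Ywhaz include 0.

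The summed normalized count of the 6 Ywha genes was 45313, 42117 and 44330 in the control libraries and 50212, 49129 and 44096 in the knockout libraries. Amh-pa1-/- replicates 1 and 2 lay above every control library and replicate 3 within the control range, with a ratio of the means of 1.09, or 1.13 without replicate 3. An exact two-sided permutation test over libraries gave p = 0.3, but the smallest p that 3 against 3 libraries allow is 0.1, so that the test could not have passed. With Sfn included, the family total was 45892 ± 1796 in control and 47823 ± 3261 in knockout cells (SD, n = 3 each).

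The share of Sfn among all 14-3-3 reads in Pa1F/F replicate 2 was 4.13%, with a 95% Wilson interval from 3.95% to 4.32%, and it averaged 4.29% ± 0.197 over the 3 control libraries (SD). In the knockout libraries it was 0.0155%, 0.0206% and 0.0318%. Per kilobase of the canonical transcript, which corrects for the short Sfn transcript, the share of Sfn averaged 7.27% ± 0.273 in control cells and 0.0404% ± 0.0147 in knockout cells (SD, n = 3 each). Per kilobase of all annotated exons joined, a measure chosen after seeing the data, the control share was 12.7%.

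On the same scale, normalized counts per kilobase, Ywhah was the highest member in control cells at 4626 ± 506 (SD, n = 3). Ywhaz at 3082 ± 54.9 and Ywhaq at 2967 ± 286 followed and did not differ beyond their spread. Next came Ywhae at 1828 ± 34.6, Ywhag at 1618 ± 21.2, Ywhab at 1450 ± 29.5 and Sfn at 1223 ± 102. In knockout cells the order was Ywhaq at 4125 ± 522, Ywhah at 3664 ± 47.4, Ywhaz at 2892 ± 193, Ywhae at 2615 ± 180, Ywhab at 1840 ± 57.2 and Ywhag at 1487 ± 127, with Sfn last at 6.61 ± 1.95. Ywhaq and Ywhah did not differ beyond their spread there. The order rests on the transcript taken as canonical, since per kilobase of all annotated exons joined the control level of Sfn, 1223, lay above those of Ywhag, 1075, and Ywhab, 538.

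Ratios between members within a library do not depend on the scaling between libraries. The pairs below were picked after the changes of their members were seen, so that a separation of the genotypes follows from the choice and is given as a description. The ratio of Ywhaq to Ywhah, per kilobase, was 0.648, 0.653 and 0.626 in the control libraries and 1.20, 1.21 and 0.968 in the knockout libraries. The ratio of Ywhae to Ywhaz was 0.592, 0.597 and 0.591 in the control and 0.893, 0.921 and 0.898 in the knockout libraries. The second ratio varied little among libraries of 1 genotype, the ones that stood apart included.

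**Figure D3:**
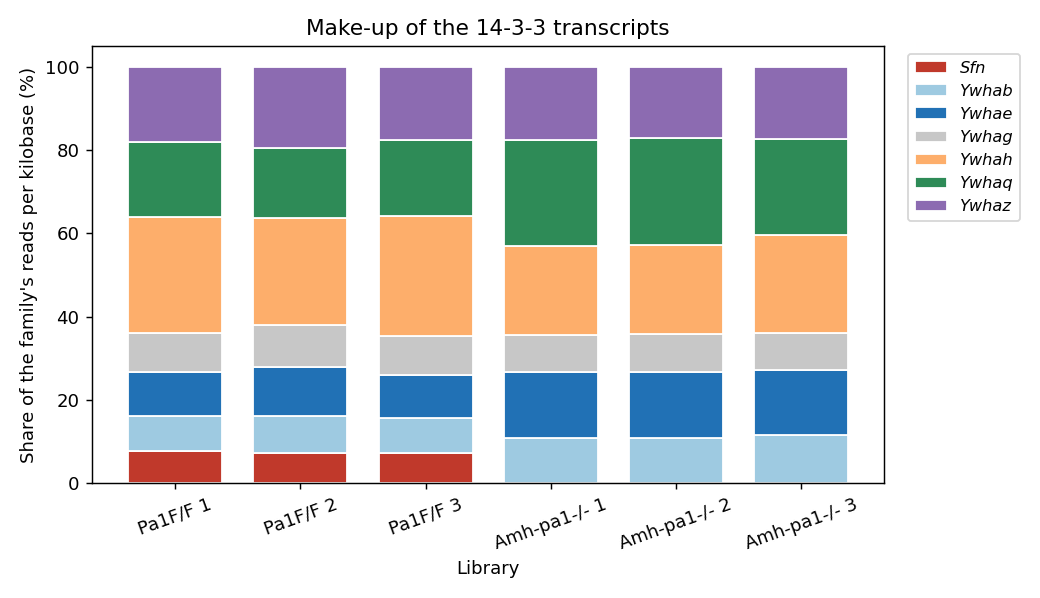
Share of each gene in the family's reads per kilobase of transcript (%), as stacked bars that add up to 100% in each library. The Sfn share averages 7.27% in the Pa1F/F libraries and is too small to see in the Amh-pa1-/- libraries, where Ywhae averages 15.7% against 10.9% and Ywhaq 24.7% against 17.6%.

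Some members share sequence with pseudogenes, which bears on how firmly their counts can be read. Of all stretches of 50 bases in the canonical transcript, 30.1% of those of Ywhaq, 21.1% of those of Ywhaz, 18.1% of those of Ywhah and 11.9% of those of Sfn were also found in another row of the family, while Ywhab, Ywhae and Ywhag had 0 such stretches. None was shared between 2 of the 7 members, so all of them came from pseudogenes. Of 9 such pseudogenes in the table, 6 had at least 10 reads in all.

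The largest was Gm4202, 100% identical to Ywhaz over its aligned bases, with 1488 reads or 2.68% of those of Ywhaz. Its normalized count averaged 260 ± 17.3 in control and 238 ± 34.0 in knockout cells (SD, n = 3 each). The log2 fold change of Gm4202 was -0.13. Gm14287, also close to Ywhaz, had a log2 fold change of -0.09. The copies close to Ywhaq had log2 fold changes of 0.60 (Gm2423), 0.60 (Ywhaq-ps3) and 0.81 (AC055818.1), none past the test by edgeR (adjusted p = 0.0549, 0.125 and 0.0963). Each of these 5 pseudogenes thus had a fold change of the same sign as its parent gene, and reads of the parent that were assigned to a copy cannot be told apart from reads of the copy. Gm12428, close to Ywhah, had 16 reads and was not tested. The 2 pseudogenes closest to Sfn, Ywhaq-ps1 and Gm7850, held 6 reads and 1 read.

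The tested neighbours of Sfn on chromosome 4 did not share its near loss. Of 21 other tested genes within 500 kb, 6 were called lower and 3 higher by edgeR, beside 17.1% lower and 18.2% higher over all tested genes. Their log2 fold changes ran from -1.03 to 1.78, and their median was -0.10 beside 0.00 over all tested genes. On the side of lower coordinates, the nearest was Gpn2, a GTPase gene 8.82 kb away, at 433, 445 and 422 normalized counts in the control and 326, 355 and 367 in the knockout libraries. Gpatch3, 16.3 kb away, had 178, 219 and 182 against 90.8, 128 and 82.2. Nr0b2, which encodes the orphan nuclear receptor SHP, lies 44.0 kb away and had 60.7, 79.4 and 60.8 against 26.4, 22.5 and 49.1. These 3 neighbours fell, with log2 fold changes of -0.31, -0.94 and -1.03 (edgeR adjusted p = 0.0256, 0.0105 and 0.0445). Among the 11 rows of the window with too few reads to be tested, Cd52, a gene of a leukocyte surface protein 480 kb away that was named after its values were seen, had 11, 13 and 9 reads in the control and 0, 1 and 0 in the knockout libraries.

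On the other side, the nearest 3 tested genes did not pass the test. Zdhhc18, a palmitoyltransferase gene 3.13 kb away, had a log2 fold change of -0.13 (edgeR adjusted p = 0.270), Pigv, a gene of glycosylphosphatidylinositol synthesis 58.2 kb away, had 0.25 (0.217), and Arid1a, a gene of the SWI/SNF remodelling complex 76.8 kb away, had -0.13 (0.142). The neighbour next to Sfn on this side therefore kept 455 normalized counts on average in knockout cells against 497 in control cells.

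**Figure D4:**
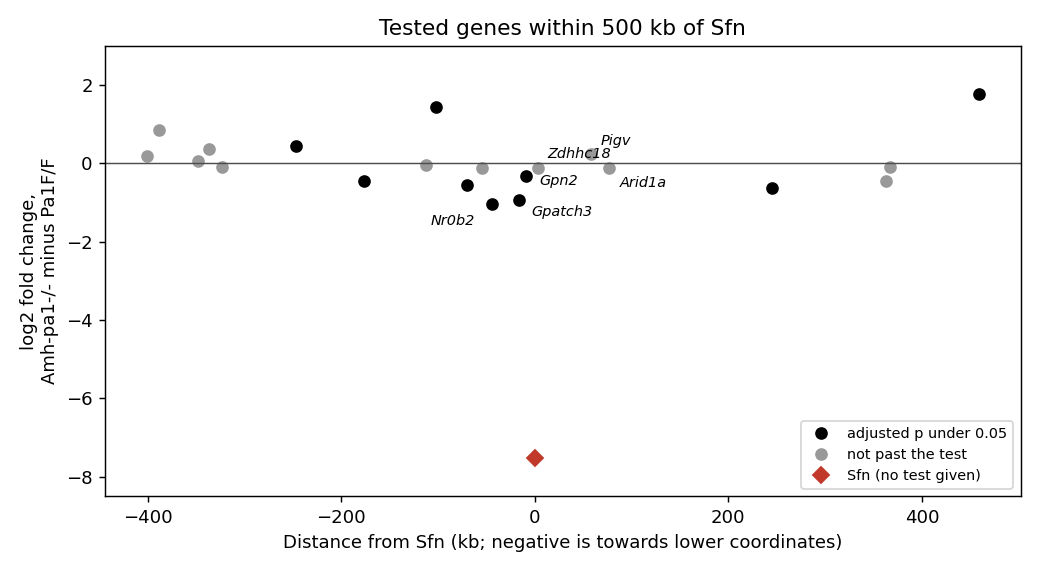
Log2 fold change of Sfn (diamond, at 0 kb) and of the 21 other tested genes within 500 kb on chromosome 4 (dots, black where called), against their distance from Sfn in kb. All neighbours lie between -1.03 and 1.78, far above the -7.52 of Sfn.

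The genes whose profile over the 6 libraries was nearest to that of Sfn, by Euclidean distance between centred log2 CPM values (reads scaled to a common library size), were Trim12a (distance 0.891), Trim30d (2.99), Nr0b1 (3.89), Trim5 (3.92) and Ctss (4.04). Trim12a was at 493, 701 and 504 normalized counts in control libraries and at 0, 1.13 and 0 in knockout libraries. Trim30d was the gene of this set in which Pa1F/F replicate 2 stood far above the others, with 1456 against 124 and 165, and it had 0 reads in the knockout. The 3 Trim genes lie close together on the minus strand of chromosome 7, between bases 104263386 and 104507849, so that they neighbour each other. Nr0b1 is on X and Ctss on 3, and none of these genes neighbours Sfn.

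Around the family, 48 genes for known 14-3-3 clients were all tested. Of these, 17 fell, 9 rose and 22 did not pass the test by edgeR, with a median log2 fold change of -0.16, beside 17.1% lower and 18.2% higher over all tested genes. With the close pairs of replicates summed, 4 fell and 3 rose, beside 1382 of 15966 tested genes called in either direction. The counts of the lists below with these pairs summed stand beside the same share. The clients past both thresholds with all 6 libraries were Mlxipl, Map3k5 and Pfkfb2, which fell, and Zfp36, which rose. Mlxipl, which encodes the glucose-responsive factor ChREBP held in the cytoplasm by 14-3-3, was at 363, 485 and 286 normalized counts in the control and 46.9, 95.8 and 96.2 in the knockout libraries, a log2 fold change of -2.25 with a standard error of 0.31 (edgeR adjusted p = 0.00250).

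Map3k5, the stress kinase ASK1 that 14-3-3 keeps inactive, had a log2 fold change of -1.47 with a standard error of 0.31 (edgeR adjusted p = 0.0120). For Pfkfb2, an enzyme that sets the level of an activator of glycolysis, it was -1.02 with a standard error of 0.11 (edgeR adjusted p = 0.00110). For Zfp36, the mRNA decay factor tristetraprolin, it was 1.43 with a standard error of 0.32 (edgeR adjusted p = 0.0147), and Amh-pa1-/- replicate 3 was the highest library, with 1585 against 760 and 738. The clients named in the background were mixed. Foxo1, Foxo3 and Yap1 fell by 0.51, 0.79 and 0.34 on the log2 scale (edgeR adjusted p = 0.00498, 0.00181 and 0.00911), and Wwtr1, the paralogue of Yap1, rose, with a log2 fold change of 0.29 (edgeR adjusted p = 0.0372). Foxo4, Bad, Cdc25a, Cdc25b and Cdc25c did not pass the test, at 0.00, 0.13, 0.13, 0.72 and 1.17.

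Among 36 genes of kinases that write and phosphatases that remove 14-3-3 binding sites, 7 fell and 8 rose by edgeR, with a median log2 fold change of 0.02. These counts stand beside the 17.1% and 18.2% of all tested genes called lower and higher, from which they differ little. Only Chek1, the checkpoint kinase that phosphorylates CDC25, passed both thresholds. It was at 86.1, 80.4 and 79.7 normalized counts in the control and 168, 155 and 236 in the knockout libraries, which did not overlap, with a log2 fold change of 1.18 and a standard error of 0.19 (edgeR adjusted p = 0.00376). The number of higher genes in this list was 4 without Pa1F/F replicate 2 and 12 without Amh-pa1-/- replicate 3. Over all tested genes 4403 of 15155 and 6617 of 15354 were called in these settings, in either direction. With the close pairs summed, 1 gene of the list fell and 2 rose.

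Of 12 regulators of stratifin, 10 were tested, and 2 fell and 4 rose by edgeR (0 and 2 with the close pairs summed), with a median log2 fold change of 0.38, beside 17.1% lower and 18.2% higher over all tested genes. Trim25, also called Efp, a ubiquitin ligase that targets stratifin for degradation, fell by 1.08 on the log2 scale (edgeR adjusted p = 0.0254), from 1412, 2839 and 1497 normalized counts to 787, 840 and 1087. Its highest control value was in Pa1F/F replicate 2. Brca1, a DNA repair gene, rose, with a log2 fold change of 1.01 (edgeR adjusted p = 0.00937). The others that passed the test, named after their values were seen, were Dnmt3a, lower at -0.34, and Dnmt1, Ezh2 and Rfwd2, higher at 0.82, 0.96 and 0.25. Dnmt1 and Dnmt3a are DNA methyltransferases and Ezh2 the methyltransferase of the Polycomb complex. Trp53, the gene of p53, did not pass, at 0.29 (edgeR adjusted p = 0.0812), and Trp63 and Trp73 had too few reads to be tested.

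Of 20 other p53 targets, 4 fell by edgeR (5 by DESeq2 and by limma-voom, but 0 by edgeR with the close pairs summed, where 4 had an unadjusted p under 0.05), and 0 rose by any of the 3 tools or at an unadjusted p under 0.05, with a median log2 fold change of -0.25. Over all tested genes 17.1% were called lower, so that a count of 4 in 20 is near the background. The 4 were Bbc3, Gadd45a, Sesn1 and Sesn2, named after their values were seen, of which Bbc3 encodes the apoptosis inducer PUMA. None passed both thresholds. Cdkn1a, the gene of the cell cycle inhibitor p21, was at 3849, 3827 and 3719 normalized counts in the control and 3823, 3809 and 1661 in the knockout libraries. Its lower knockout mean came from Amh-pa1-/- replicate 3 alone, and its log2 fold change of -0.29 did not pass the test (edgeR adjusted p = 0.470). Without that library, 5 of the 20 were called higher and 6 lower, beside 6617 of 15354 tested genes called in either direction.

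Of 15 genes of the G2/M transition and the cell cycle kinases, 5 rose by edgeR (9 by DESeq2, 6 by limma-voom and 2 by edgeR with the close pairs summed), with a median log2 fold change of 0.72, beside 18.2% higher over all tested genes. Those past both thresholds were Ccne2, Ccna2 and Aurkb, at 1.55, 1.41 and 1.33 (edgeR adjusted p = 0.00106, 0.00801 and 0.00589), which encode cyclins E2 and A2 and the aurora B kinase. Cyclin E2 acts at the start of DNA replication, before G2, so that the list is not limited to G2/M genes. Of the 15 genes, 10 did not pass the test by edgeR. Ccna2 was at 280, 439 and 249 normalized counts in the control and 698, 741 and 1139 in the knockout libraries, with Pa1F/F replicate 2 and Amh-pa1-/- replicate 3 the highest of their groups. Ccne1 and Cdk2, the other members that rose, were named after their values were seen. Ccnb1, the gene of the cyclin B1 that stratifin holds back, also named after its values were seen, was at 229, 460 and 223 against 429, 403 and 912, so that the genotypes overlapped and it did not pass (edgeR adjusted p = 0.120).

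**Figure D5:**
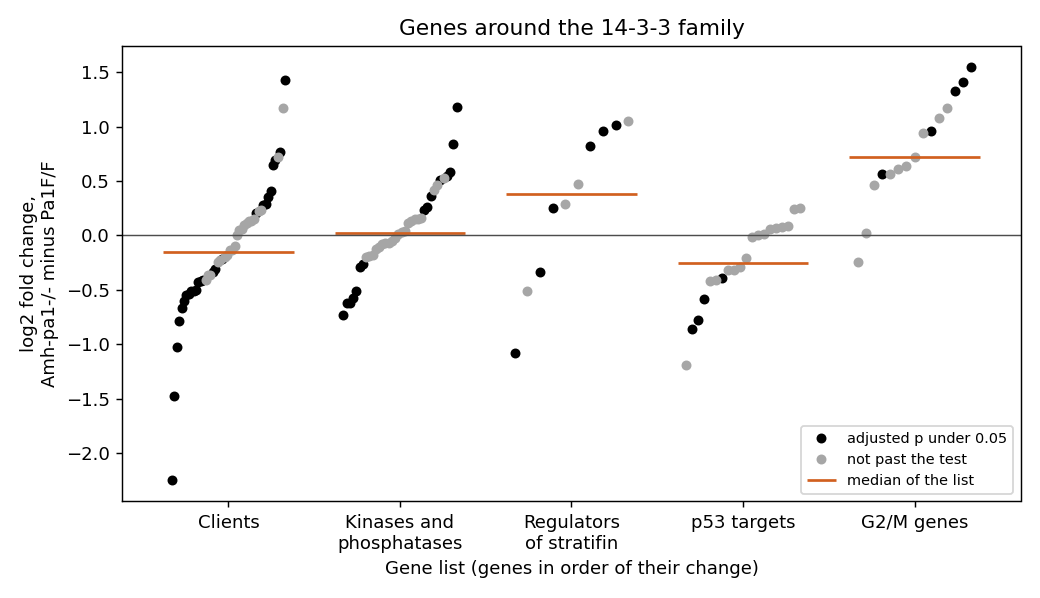
Log2 fold change of the tested genes of 5 lists around the family, each list in order of its values, with black for genes called by edgeR and a line at the median. The medians are -0.16 for clients, 0.02 for kinases and phosphatases, 0.38 for regulators of stratifin, -0.25 for p53 targets and 0.72 for G2/M genes.

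The Sertoli cell label was checked with 15 marker genes, of which 13 were tested, 4 fell and 1 rose by edgeR. Over all tested genes 17.1% were called lower and 18.2% higher, which also stands beside the epithelial counts below. The untested markers, Rhox5 and Trf, which encodes transferrin, had 2 to 16 and 2 to 6 reads a library in the 2 genotypes together. Sox9 was at 4290 to 4983 normalized counts in the control and 3172 to 4904 in the knockout libraries, and Wt1 at 4976 to 5155 and 4493 to 6084, while Clu, Inha, Gata4 and Sox8 fell and Krt18 rose. Sox8 and Gata4, which encode transcription factors of Sertoli cells, had log2 fold changes of -1.85 and -0.88 (edgeR adjusted p = 0.00294 and 0.000325). The summed level of the list was 239704 to 243930 in control and 142135 to 183861 in knockout libraries, most of it from Clu alone with means of 193368 and 119830, a difference that moved with the loss of Sfn and whose part in it was not tested. Of the markers of stratified epithelia, where stratifin is best known, some were near 0 and others were not. Krt14 had 1 read in the 6 libraries together, and Trp63 had between 0 and 5 reads in each, whereas the desmosomal genes Perp and Dsp averaged 868 and 368 normalized counts in control cells. Krt5, Krt15, Esrp1 and Ovol1, also on this list, had no row under these names among the counted genes, so their levels are not known here. Of 19 epithelial genes in the table, 10 were tested, Cldn7 fell and Dsp, Elf3, Epcam and Krt19 rose, and the summed level was 1993 to 2168 in control and 2350 to 2372 in knockout libraries.

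Some markers of other cells of the testis also moved with the genotype, beside 17.1% of all tested genes called lower and 18.2% higher. For macrophages 6 of 8 tested markers fell, Csf1r and Lyz2 among them, and the summed level of the list went from 1823 to 2017 in control to 1112 to 1367 in knockout libraries. Mrc1, with means of 984 in control and 1109 in knockout cells, did not pass the test and made up much of both sums. For Leydig cells Cyp11a1, Hsd3b1 and Star fell, with a summed level of 12326 to 13716 against 2607 to 4898, although Cyp17a1 and Insl3, which define these cells, had at most 3 reads in any library. For peritubular myoid cells Acta2 rose, from a mean of 2968 to 13194 normalized counts, and carried the summed level of 3264 to 4164 against 12179 to 18639. The other tested markers of this list, Actg2, Cnn1, Des and Myh11, did not pass the test and were high only in Amh-pa1-/- replicate 3, where Myh11 was at 1605 against 216 and 164 in the other knockout and 481 to 649 in the control libraries. For mesothelial cells Krt19, Lrrn4 and Upk3b rose, Upk3b from a mean of 8.62 to 270 and Krt19 from 1.58 to 55.5 normalized counts. The other 3 tested genes of that list did not pass, among them Msln, with means of 61.9 and 43.0, and Upk1b. For endothelial cells Cdh5 and Pecam1 fell and Vwf rose, of 4 tested markers, and for germ cells Ddx4 and Kit fell, of 4 tested. The summed levels were 5078 to 5314 against 5067 to 6594 for the mesothelial, 1707 to 1793 against 939 to 1487 for the endothelial and 2842 to 3241 against 1567 to 2952 for the germ cell list. Most of the mesothelial sum was Wt1, which Sertoli cells express, and most of the germ cell sum was Uchl1, which did not pass the test (edgeR adjusted p = 0.3) and was low only in Amh-pa1-/- replicate 3. The part of these cells in the changes of Sfn and of the Ywha genes was not tested.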

How the data were processed

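RNA-seq was made from 3 Pa1F/F and 3 Amh-pa1-/- Sertoli cell libraries. Per the labels, the authors used HISAT2 2.1.0 for alignment to GRCm38 and HTSeq 0.6.0 to count reads per gene, and deposited the counts without normalization, and all 6 count columns were used. The same table holds the authors' own means, fold changes and p-values, which were not used. Total counts were 13203757 to 16231443 per library, so that a floor of 3 reads equals 0.185 to 0.227 CPM. Without molecular identifiers, intervals and floors cover counting error only.

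Genes were filtered with filterByExpr (minimum count 10, minimum total 15), normalized by TMM and tested with edgeR 4.0.16 (quasi-likelihood, no covariates) in R 4.3.3, with p-values adjusted by Benjamini-Hochberg over 14919 genes. DESeq2 1.42.0, limma-voom (limma 3.58.1), other scalings and filters, the replicate number as a block, close replicates summed and each library left out were alternatives. Transcript lengths came from the GENCODE annotation. Sequences were read with Biopython 1.88 under Python 3.11.15. Profiles used log2 CPM with a prior count of 3.

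The family and the gene lists were chosen with earlier results of these data known. Named were all members, pseudogenes with at least 10 reads, the nearest 3 tested genes on each side of Sfn, the 5 nearest profiles, genes of each pathway list past both thresholds (at most 6) or its defining gene, and at most 4 markers a list. The pseudogenes closest to Sfn, which had fewer reads, were named as well. Further genes of these lists, beyond these limits, were named after their values were seen. They were named for a count of at most 5, as an untested marker, as a client from the background on the family, or as a member that went another way. Protein sequences were not used here.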

Additional observations from a re-analysis of the deposited data

How the results depend on the processing

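The replicate numbers did not pair the libraries, since the deviations of same-numbered libraries from their group means correlated at 0.11, -0.16 and -0.18 over genes. With the replicate block, 2 of the 6 Ywha genes were called in place of 4. Leaving out 1 library gave 2 to 4, and summing the close pairs of replicates gave 0. The cause was not tested. Over all genes, 5266 were called at adjusted p under 0.05 with 6 libraries, 3450 without Pa1F/F replicate 1, 6617 without Amh-pa1-/- replicate 3 and 1382 with the pairs summed, and 1791 and 883 past both thresholds with 6 libraries and with the pairs summed. The other scalings, filters and tools called the same number, 4. No log2 fold change of a member turned its direction under the 14 alternatives, and that of Sfn ran from -7.77 to -7.32 over the 13 that could give a value, since it failed the filter of 10 counts in every library. The share of Sfn in the family was 4.29% and 0.0226% by reads, 7.27% and 0.0404% per kilobase and, in an alternative chosen after seeing the data, 12.7% and 0.0734% per kilobase of all annotated exons, in control and knockout cells. Without Pa1F/F replicate 2 or Amh-pa1-/- replicate 3, the higher genes numbered 4 to 12 (kinases and phosphatases) and 0 to 5 (p53 targets), and the lower genes 0 to 1 (G2/M). In alternatives chosen after seeing the data, DESeq2 called 9 G2/M genes higher, and summing the close pairs left 4 lower and 3 higher clients, 1 and 2 kinases and phosphatases, 0 and 2 regulators of stratifin, 0 lower p53 targets and 2 higher G2/M genes. The ratio of the summed Ywha counts stayed between 1.06 and 1.13. Depth limits the Sfn level in the knockout, which rests on 8 to 14 reads, and the pseudogenes.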
